A study of Mus musculus with 10 samples.

Results

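The interleukin-1 (IL-1) receptor and the NF-κB feedback loop were described in mouse liver through 10 genes chosen by name: *Il1r1*, *Il1rap*, *Il1rn*, *Nfkbia*, *Nfkbiz*, *Nfkb1*, *Nfkb2*, *Rela*, *Relb* and *Tnfaip3*. All 10 had counts and were among the 12147 genes tested. IL-1 binds the receptor chain encoded by *Il1r1*, which signals only with its partner encoded by *Il1rap*, and the antagonist encoded by *Il1rn* occupies the receptor without signalling. The signal frees NF-κB dimers from their IκB inhibitors, and NF-κB then induces several of its own inhibitors, including *Nfkbia* and *Tnfaip3*, so that the response is self-limiting. In liver, IL-1 is known for driving the acute phase response of hepatocytes.

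Whole snap-frozen livers came from germ-free (GF) C57BL6 WT mice, 1 RNA-seq library per mouse. Microbiota-derived extracellular vesicles (MEV), membrane particles shed by gut microbes and purified from the gut contents of control mice, were given orally in PBS at 80 μg, 2 doses per week for 3 weeks, to 5 mice (GF+MEV). The 5 control mice (GF+PBS) received PBS alone on the same schedule. All mice were GF and carried no other manipulation named in the sources used here, in which the age of the GF mice is not given, and the comparison asks what MEV change in the liver. It rests on a single experiment, and p-values measure the spread between these 10 livers.

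Libraries held 15746119 to 20523649 gene counts. Levels are given as CPM, a library's counts scaled to a common size with edgeR's TMM factors. GF+MEV replicate 2 had a TMM factor of 0.890 against 0.978 to 1.01 in the other GF+MEV livers. It stood far apart from them in raw counts. The chi-square per gene was 135 to 176, against 25 or less for all other pairs of livers of 1 group. This measure scales by library totals without TMM factors and averages over genes, so abundant genes can dominate it. GF+PBS replicates 1 and 3, and 4 and 5, were the most alike pairs, at 6.36 and 7.201. The summed hepatocyte markers (7 of 7 measured) were at 93730 to 113700 CPM in GF+MEV livers, against 98240 to 113300 CPM in GF+PBS. The tissue thus carried its defining markers in both groups. In whole liver, fewer cells of a type and less RNA per cell cannot be told apart.

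Of the 10 genes, 3 were higher in GF+MEV livers by edgeR's quasi-likelihood test at an adjusted p under 0.05, and none was lower. They were the signalling receptor gene *Il1r1* (2.88-fold), the NF-κB inhibitor gene *Nfkbia* (1.89-fold) and the ubiquitin-editing inhibitor gene *Tnfaip3* (1.48-fold). Over all tested genes, 7.64% were called in either direction and 4.12% were called higher. That split of 500 higher and 428 lower genes became 428 and 612 with upper-quartile scaling, under which the calls on these 10 genes did not change. The same 3 genes had no overlap between groups, which held for 7.39% of all genes. None of the 4 NF-κB subunit genes passed the test. The median log2 fold change of the 10 genes was 0.041, with 5 above 0 and 5 below, and that of all genes was -0.0037.

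**Figure D1:**
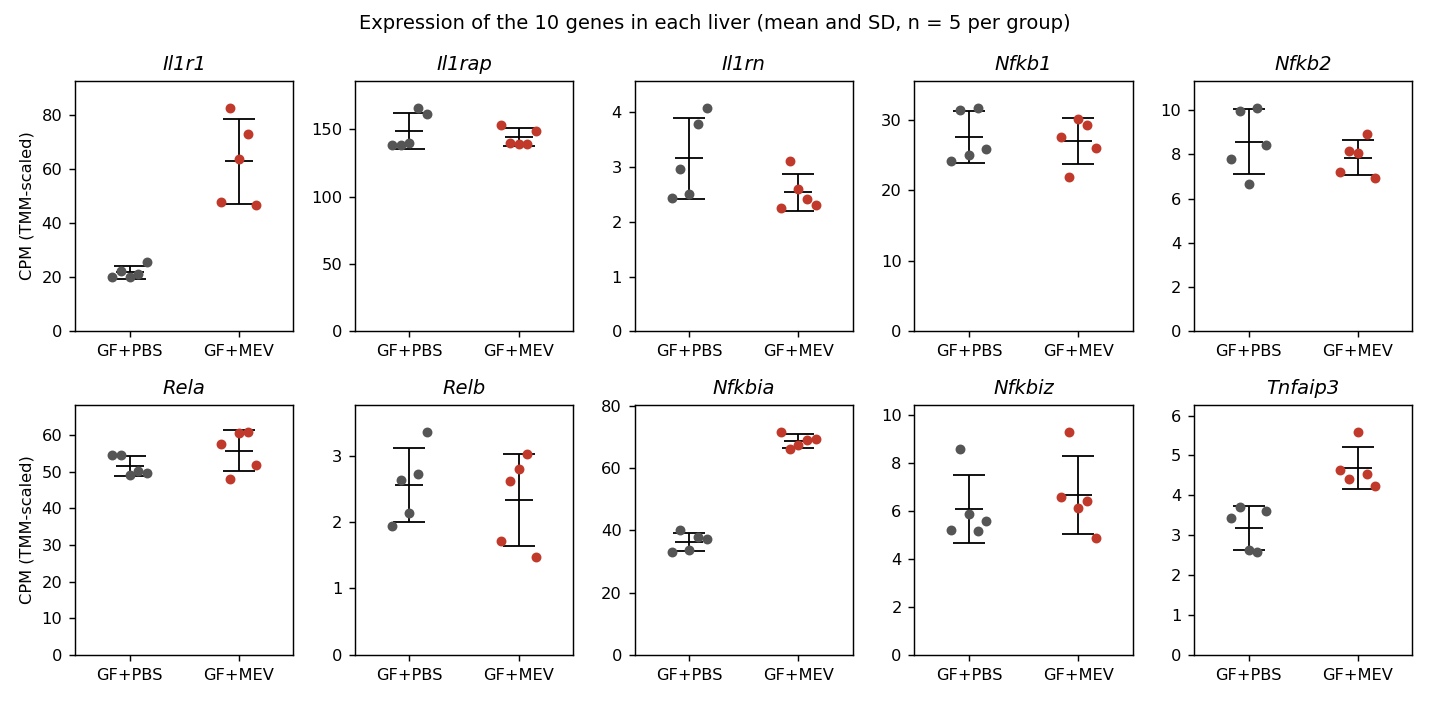
Each panel plots the CPM of 1 gene on a linear axis from 0, with 1 point per liver, GF+PBS in grey and GF+MEV in red, and lines for the mean and SD of 5 livers. *Il1r1*, *Nfkbia* and *Tnfaip3* have no overlap between groups, whereas the groups overlap for the other 7 genes.

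The promoter windows of the genes that rose, and of *Nfkb2* as a subunit gene that did not pass the test, are shown because NF-κB is known to bind short κB sites at several of its own genes. The windows are RefSeq sequences of GRCm38.p6 from 250 bases before to 50 after a start site, written 5′ to 3′ on the gene's strand. Capitals mark matches to the 10-base κB consensus on either strand. *Nfkbia* has a match that starts 29 bases upstream of its start (chr12:55492598-55492897, minus strand), and window 1 of *Tnfaip3* has matches 125 and 12 bases upstream (chr10:19015361-19015660, minus strand). *Il1r1* has none in its first window and 1 match, 232 bases upstream, in its second (chr1:40266336-40266635, plus strand). Only this second window is printed for *Il1r1*, and it belongs to a start inside the gene. Which start sites were used in these livers was not measured. *Nfkb2* has overlapping matches starting 39 and 38 bases upstream and 1 more at 11 bases upstream in window 1 (chr19:46304487-46304786, plus strand).
Nfkbia: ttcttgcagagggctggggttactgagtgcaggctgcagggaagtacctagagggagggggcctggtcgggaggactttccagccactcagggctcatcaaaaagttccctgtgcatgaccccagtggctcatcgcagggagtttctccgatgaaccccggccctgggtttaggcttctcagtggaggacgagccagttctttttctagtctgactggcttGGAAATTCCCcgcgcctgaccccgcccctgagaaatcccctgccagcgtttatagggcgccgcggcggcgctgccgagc
Tnfaip3: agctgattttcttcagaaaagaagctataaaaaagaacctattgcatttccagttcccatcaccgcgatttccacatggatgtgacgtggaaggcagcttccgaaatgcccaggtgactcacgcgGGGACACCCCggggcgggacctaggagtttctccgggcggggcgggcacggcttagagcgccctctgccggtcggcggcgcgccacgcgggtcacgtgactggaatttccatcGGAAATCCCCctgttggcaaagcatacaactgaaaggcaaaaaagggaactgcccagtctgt
Il1r1: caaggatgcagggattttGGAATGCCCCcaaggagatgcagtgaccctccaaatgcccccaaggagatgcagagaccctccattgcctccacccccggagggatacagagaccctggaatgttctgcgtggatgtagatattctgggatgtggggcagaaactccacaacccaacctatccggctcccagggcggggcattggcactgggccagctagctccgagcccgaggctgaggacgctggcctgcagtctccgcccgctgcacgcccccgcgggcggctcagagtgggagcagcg
Nfkb2: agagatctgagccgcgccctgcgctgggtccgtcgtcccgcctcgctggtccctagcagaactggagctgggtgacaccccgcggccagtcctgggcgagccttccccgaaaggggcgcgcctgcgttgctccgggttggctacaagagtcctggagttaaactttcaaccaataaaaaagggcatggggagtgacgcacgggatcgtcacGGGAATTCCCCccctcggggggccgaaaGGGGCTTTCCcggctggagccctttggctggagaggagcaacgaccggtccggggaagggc
Windows were held for 7 of the 10 genes, 13 in all, of which 6 windows in 4 genes contained a match. Of all 32817 windows, 4.50% did. *Nfkb2* had matches in its windows 1, 2 and 3, and windows 2 and 3 overlap and share a match. Window 2 of *Tnfaip3* had none. The windows of *Il1rap*, *Il1rn* and *Rela* had no match, which says only that these letters are not in them. A match is a description of the sequence and not a measured binding site.

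*Il1r1* (ENSMUSG00000026072; GRCm38 chromosome 1, 40225080 to 40317257, plus strand) was at 47.9, 82.6, 63.6, 73.1 and 46.65 CPM in GF+MEV replicates 1 to 5 and at 20.2, 22.1, 19.9, 21.1 and 25.6 CPM in GF+PBS. Every GF+MEV liver lay above every GF+PBS liver, and GF+MEV replicates 1 and 5 were the lowest of their group. The means were 62.8 ± 15.7 CPM and 21.8 ± 2.30 CPM (SD, n = 5). The log2 fold change was 1.53 with a standard error (SE) of 0.18 and an adjusted p of 7.94e-06 by edgeR. Without GF+MEV replicate 2, the library that stood apart and read highest, it was 1.41 (adjusted p = 1.04e-05 by edgeR), while *Nfkbia* was at 0.93 (1.13e-06) and *Tnfaip3* at 0.59 (0.0426). The coefficient of variation was 25.0% in GF+MEV and 10.6% in GF+PBS. By an exact permutation test of the mean log2 CPM (two-sided, n = 5 per group), p was 0.00794, the smallest this design allows.

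*Il1rap* (ENSMUSG00000022514; chromosome 16, 26581704 to 26730117, plus strand), the accessory chain, spanned 139.0 to 153 CPM in GF+MEV, against 138 to 166 CPM in GF+PBS. The ranges overlapped, and GF+PBS replicates 4 (166 CPM) and 5 (161 CPM) lay above all GF+MEV livers. Its log2 fold change was -0.05 (SE 0.07, adjusted p = 0.751 by edgeR), with a 95% interval by limma-voom of -0.18 to 0.10. Of its 11360 exonic bases, 552 overlap *Gm20319* on the other strand, and whether counting used strand is not given in the sources used here.

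*Il1rn* (ENSMUSG00000026981; chromosome 2, 24336853 to 24351494, plus strand), which encodes the IL-1 receptor antagonist, was a low gene in these livers. It read 2.26, 3.11, 2.61, 2.41 and 2.31 CPM in GF+MEV and 2.44, 2.97, 2.50, 3.79 and 4.08 CPM in GF+PBS. GF+PBS replicates 4 and 5 were above all GF+MEV livers, and the other 3 lay within their range. The log2 fold change was -0.32 (SE 0.17), which did not pass the test (adjusted p = 0.335 by edgeR, 95% interval -0.68 to 0.09).

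Ratios within a liver were compared as a measure free of library scaling. The ratio of *Il1r1* to *Il1rap* counts was 0.312, 0.590, 0.458, 0.524 and 0.313 in GF+MEV and 0.146, 0.159, 0.142, 0.127 and 0.159 in GF+PBS. It was 0.439 ± 0.125 against 0.147 ± 0.0134 (SD, n = 5), so receptor and accessory chain counts changed unequally. The ratio of *Il1rn* to *Il1r1* counts was 0.0417 ± 0.00679 in GF+MEV and 0.144 ± 0.0249 in GF+PBS. For antagonist against receptor the log2 difference was -1.79, and for receptor against accessory chain it was 1.54. In both ratios the groups did not overlap (exact two-sided permutation test, p = 0.00794 for each, also after adjustment over the 3 ratios compared, n = 5 per group). Both contain *Il1r1*, whose groups were apart on its own, whereas those of *Il1rap* and *Il1rn* overlapped. The ratio tests are therefore not separate from the *Il1r1* result and are no finding on the antagonist.

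**Figure D2:**
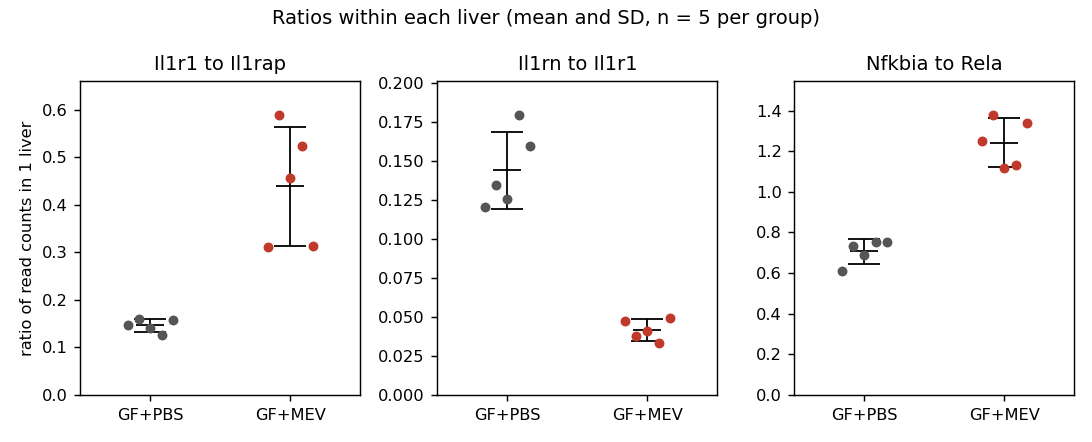
Each panel plots the ratio of 2 genes' read counts within a liver on a linear axis from 0, with 1 point per liver and lines for the mean and SD of 5 livers per group. *Il1r1* to *Il1rap* and *Nfkbia* to *Rela* are higher in every GF+MEV liver (red) than in every GF+PBS liver (grey), and *Il1rn* to *Il1r1* is lower in every GF+MEV liver.

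The subunit genes encode the proteins that pair as NF-κB: p65 (*Rela*), p105/p50 (*Nfkb1*), p100/p52 (*Nfkb2*) and RelB (*Relb*). *Rela* (ENSMUSG00000024927; chromosome 19, 5637483 to 5648130, plus strand) was at 57.5, 48.0, 60.5, 60.9 and 51.8 CPM in GF+MEV and at 54.5, 54.5, 49.0, 50.1 and 49.6 CPM in GF+PBS. The lowest and the 3 highest of the 10 livers were all GF+MEV. Its log2 fold change was 0.11 (SE 0.08, adjusted p = 0.411 by edgeR, 95% interval -0.05 to 0.27).

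*Nfkb1* (ENSMUSG00000028163; chromosome 3, 135584655 to 135691547, minus strand) was at 27.0 ± 3.26 CPM in GF+MEV and 27.6 ± 3.67 CPM in GF+PBS (SD, n = 5), ranging from 21.9 to 30.1 and from 24.1 to 31.7 CPM. Its log2 fold change was -0.03 (SE 0.12, adjusted p = 0.906 by edgeR, 95% interval -0.25 to 0.19). The sign turned when GF+MEV replicate 2 (0.04), GF+PBS replicate 2 (0.02) or GF+PBS replicate 4 (0.02) was left out.

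*Nfkb2* (ENSMUSG00000025225; chromosome 19, 46304320 to 46312385, plus strand) spanned 6.94 to 8.93 CPM in GF+MEV, against 6.67 to 10.1 CPM in GF+PBS, with a log2 fold change of -0.13 (SE 0.13, adjusted p = 0.610 by edgeR, 95% interval -0.39 to 0.15). Its exons overlap *AC114539.1* by 531 and *Psd* by 299 of 4584 bases on the other strand. *Relb* (ENSMUSG00000002983; chromosome 7, 19606217 to 19629438, minus strand), the partner of p52 in the non-canonical pathway, was at 1.71, 2.62, 2.80, 3.03 and 1.48 CPM in GF+MEV and 1.94, 2.63, 2.14, 2.73 and 3.36 CPM in GF+PBS. GF+MEV replicates 1 and 5, which were also lowest for *Il1r1*, were the lowest of all 10 livers. The log2 fold change of -0.13 (SE 0.24, adjusted p = 0.802 by edgeR) had the widest 95% interval among the subunit genes, from -0.62 to 0.33. Its lowest count was 23, which carries a counting error of 20.9%.

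Of the feedback genes, *Nfkbia* (ENSMUSG00000021025; chromosome 12, 55489410 to 55492647, minus strand) encodes IκBα, which holds NF-κB in the cytoplasm. It was at 71.8, 66.2, 67.5, 69.0 and 69.3 CPM in GF+MEV and at 33.2, 40.1, 33.8, 37.8 and 37.3 CPM in GF+PBS. The 2 groups were wide apart and each was tight, with a coefficient of variation of 3.07% and 7.90%. The means were 68.7 ± 2.11 and 36.4 ± 2.88 CPM (SD, n = 5). The log2 fold change was 0.92 (SE 0.05, adjusted p = 3.54e-07 by edgeR, 95% interval 0.78 to 1.05), with p = 0.00794 by the exact permutation test (two-sided, n = 5 per group).

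Set against its main binding partner within the same liver, the ratio of *Nfkbia* to *Rela* counts spanned 1.115 to 1.38 in GF+MEV, against 0.609 to 0.755 in GF+PBS. The mean was 1.24 ± 0.119 against 0.708 ± 0.0613 (SD, n = 5). The log2 difference was 0.81 (exact two-sided permutation test, p = 0.00794, n = 5 per group). The groups of *Nfkbia* were apart on its own, so this test is not separate from that result. Raw counts of genes of unequal length were divided, so the ratio compares the groups and not the level of the inhibitor with that of p65.

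*Tnfaip3* (ENSMUSG00000019850; chromosome 10, 19000910 to 19015657, minus strand) encodes A20, which removes activating ubiquitin chains from the adaptors above NF-κB. It was at 4.64, 4.42, 5.60, 4.55 and 4.24 CPM in GF+MEV and at 3.44, 3.70, 2.62, 2.58 and 3.60 CPM in GF+PBS. All GF+MEV livers lay above all GF+PBS livers, with the nearest pair 4.24 and 3.70 CPM. The means were 4.69 ± 0.531 and 3.19 ± 0.547 CPM (SD, n = 5).

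The log2 fold change of *Tnfaip3* was 0.56 (SE 0.13, adjusted p = 0.0275 by edgeR, 95% interval 0.27 to 0.90), with p = 0.00794 by the exact permutation test (two-sided, n = 5 per group). It rested on 44 to 116 counts per liver. The call was lost without GF+MEV replicate 1 (log2 fold change 0.57, adjusted p = 0.0506) or 3 (0.49, adjusted p = 0.0755), and without GF+PBS replicate 3 (0.50, adjusted p = 0.0720) or 4 (0.49, adjusted p = 0.0745), all by edgeR. It was also lost when GF+PBS replicates 1 and 3, and 4 and 5, were each summed into 1 sample (0.55, adjusted p = 0.0554 by edgeR). That fit had fewer samples at a nearly equal fold change, and made 561 calls over all genes against 928. The summed livers came from separate mice.

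*Nfkbiz* (ENSMUSG00000035356; chromosome 16, 55811375 to 55838899, minus strand) encodes IκBζ, a nuclear member of the IκB family that is itself induced by IL-1. It was at 6.59, 9.31, 6.13, 6.40 and 4.88 CPM in GF+MEV and at 5.22, 8.57, 5.89, 5.15 and 5.59 CPM in GF+PBS. Each group had 1 liver well above the others, replicate 2 in both. Its log2 fold change was 0.13 (SE 0.20, adjusted p = 0.745 by edgeR, 95% interval -0.25 to 0.48), and it was -0.01 without GF+MEV replicate 2.

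**Figure D3:**
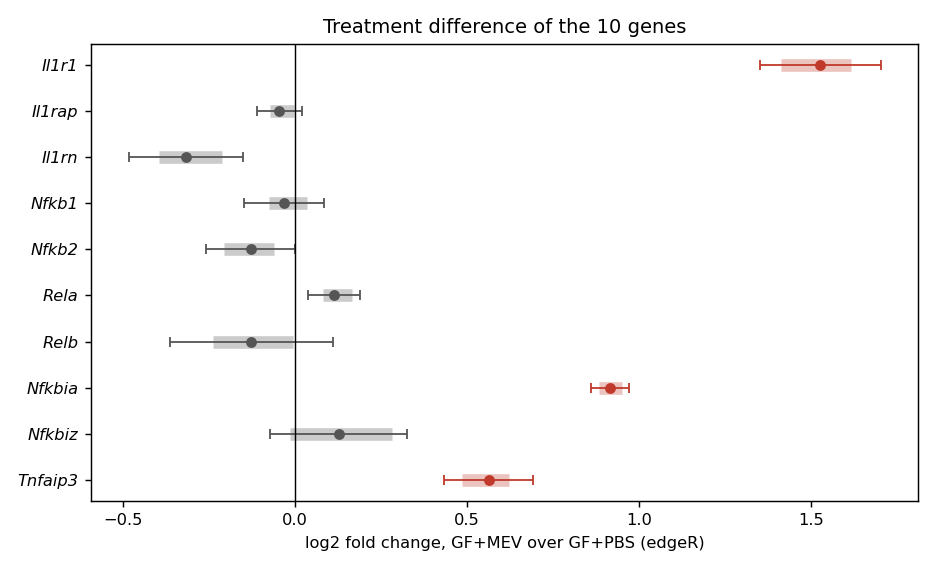
The points plot each gene's log2 fold change, GF+MEV over GF+PBS, from edgeR, with thin bars for the SE and wide pale bands for the range when each of the 10 livers was left out in turn. Genes with an adjusted p under 0.05 are red, namely *Il1r1* at 1.53, *Nfkbia* at 0.92 and *Tnfaip3* at 0.56, and the bands of *Nfkb1* and *Nfkbiz* cross 0.

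Levels of different genes were compared as CPM per kilobase of exonic length. That length joins all annotated exons of a gene, from 1610 bases for *Nfkbia* to 12061 for *Nfkb1*. Which transcripts were present was not measured, so the order depends on this choice of length. In GF+PBS the order was *Nfkbia* (22.6), *Rela* (16.8), *Il1rap* (13.1), *Il1r1* (3.42), *Nfkb1* (2.29), *Nfkb2* (1.87), *Nfkbiz* (1.21), *Relb* (0.660), *Il1rn* (0.570) and *Tnfaip3* (0.441 CPM per kilobase). Neighbours whose livers overlapped were *Nfkb1* and *Nfkb2*, *Nfkb2* and *Nfkbiz*, *Relb* and *Il1rn*, and *Il1rn* and *Tnfaip3*. In GF+MEV *Nfkbia* was again first at 42.7 CPM per kilobase, followed by *Rela* at 18.1 and *Il1rap* at 12.7. *Il1r1* at 9.86 CPM per kilobase then overlapped *Il1rap*, its highest liver being at 13.0 and the lowest *Il1rap* liver at 12.2. *Nfkb1* (2.24), *Nfkb2* (1.71) and *Nfkbiz* (1.33 CPM per kilobase) came next, each overlapping its neighbour. *Tnfaip3* (0.649) stood above *Relb* (0.599) and *Il1rn* (0.459 CPM per kilobase), with overlap between each of these neighbours.

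The rest of the pathway was described through 7 lists of 100 genes, of which 72 had a value here. In total 13 were called by edgeR, 5 higher and 8 lower, or 18.1% against 7.64% of all genes. The median log2 fold change of the 72 genes was 0.025. The lists were written with earlier results of these data known, so their counts are a description.

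On the ligand side, none of 5 measured genes of the IL-1 ligands and their processing was called, at a median log2 fold change of -0.17. *Il1a*, the IL-1α gene, was at 0.897 to 2.14 CPM in GF+MEV and 1.85 to 3.96 CPM in GF+PBS, a log2 fold change of -0.86 (SE 0.28) that just missed the threshold (adjusted p = 0.0507 by edgeR). Of the 1974 exonic bases of *Il1a*, 222 overlap *Gm14023* on the other strand. *Il1b* was not analysed here. Among the other IL-1 family receptors and decoys, 2 of 9 had a value and both were lower. *Sigirr*, an inhibitory receptor of the family, was at 13.8 to 15.01 CPM in GF+MEV and 17.5 to 20.6 CPM in GF+PBS, with a log2 fold change of -0.38 (adjusted p = 0.00527 by edgeR). *Il18bp*, the soluble decoy for IL-18, had a log2 fold change of -0.37 (adjusted p = 0.0268 by edgeR), and 80 of its exonic bases overlap *Numa1* on the other strand. The decoy receptor gene *Il1r2* was not analysed here.

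Of 15 measured adaptors and kinases below the receptor, 14 were not called. *Myd88*, the adaptor that the IL-1 receptor shares with Toll-like receptors, had a log2 fold change of -0.04 (adjusted p = 0.854). Of its 2576 exonic bases, 290 overlap *Acaa1a* on the other strand. *Tab1*, a partner of the kinase TAK1, was lower by edgeR (-0.39, adjusted p = 0.0338). The IKK complex, which phosphorylates IκB, and the non-canonical kinases gave 2 lower genes of 16. *Ikbkb* (0.03, adjusted p = 0.862) and *Ikbkg* (0.15, adjusted p = 0.304) did not pass. Exons of *Ikbkg* overlap *G6pdx* on the other strand by 418 of 8110 bases. *Map3k14*, which encodes the non-canonical kinase NIK, was at 0.897 to 2.06 CPM in GF+MEV and 2.80 to 3.998 CPM in GF+PBS, without overlap (log2 fold change -0.998, adjusted p = 0.00557 by edgeR), and shares 135 exonic bases with *1700028N14Rik* on its own strand. *Traf5* had a log2 fold change of -0.62 (adjusted p = 0.0356 by edgeR). Its exons overlap *Gm26879* by 205 bases on the other strand and *Mir3473c* by 65 bases on its own strand.

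Among 7 measured other genes of the IκB and Rel families, 1 was higher and 1 lower. *Rel*, encoding c-Rel, was at 4.18 to 6.51 CPM in GF+MEV and 2.38 to 4.50 CPM in GF+PBS, with overlapping groups and a log2 fold change of 0.70 (adjusted p = 0.0202 by edgeR). *Bcl3*, a nuclear IκB protein gene, was at 13.2 ± 2.47 CPM against 20.1 ± 1.80 CPM (SD, n = 5), a log2 fold change of -0.60 (adjusted p = 0.00537 by edgeR). The 161 bases of *Bcl3* exons shared with *Gm16175* lie on the other strand.

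Of 12 measured other brakes on NF-κB, 2 were higher and 10 were not called. *Zfp36*, whose product tristetraprolin destabilizes cytokine mRNA, was at 241, 238, 189, 242 and 202 CPM in GF+MEV and at 110.3, 77.6, 111, 105 and 105 CPM in GF+PBS. Its groups were apart, with a log2 fold change of 1.13 (adjusted p = 4.38e-06 by edgeR), and 125 of its exonic bases overlap *Gm44710*. *Itch*, a ubiquitin ligase that acts with A20, rose by 0.33 on the log2 scale (adjusted p = 0.0367 by edgeR). *Tnip1*, an A20-binding protein gene, had a log2 fold change of -0.21 (adjusted p = 0.263).

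Of 25 genes known to respond to NF-κB, 15 had a value. The adhesion molecule gene *Vcam1* was at 10.04 CPM in GF+MEV and 4.94 CPM in GF+PBS (log2 fold change 1.02, adjusted p = 8.85e-05), and the survival gene *Bcl2l1* was higher by 0.37 on the log2 scale (adjusted p = 0.0138). *Irf1*, an interferon-responsive transcription factor gene, was at 15.1 to 17.5 CPM in GF+MEV and 33.4 to 41.1 CPM in GF+PBS, with a log2 fold change of -1.21 (adjusted p = 9.28e-08). The chemokine gene *Cxcl10* had a log2 fold change of -1.36 (adjusted p = 0.00735), all by edgeR. The other 11 were not called, and the list's median was -0.06. The groups of *Cxcl10* came close to each other, at up to 2.07 CPM in GF+MEV and down to 2.02 CPM in GF+PBS, and overlapped. Exons of *Vcam1*, *Cxcl10* and *Irf1* overlap other-strand genes by 61, 133 and 135 bases.

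**Figure D4:**
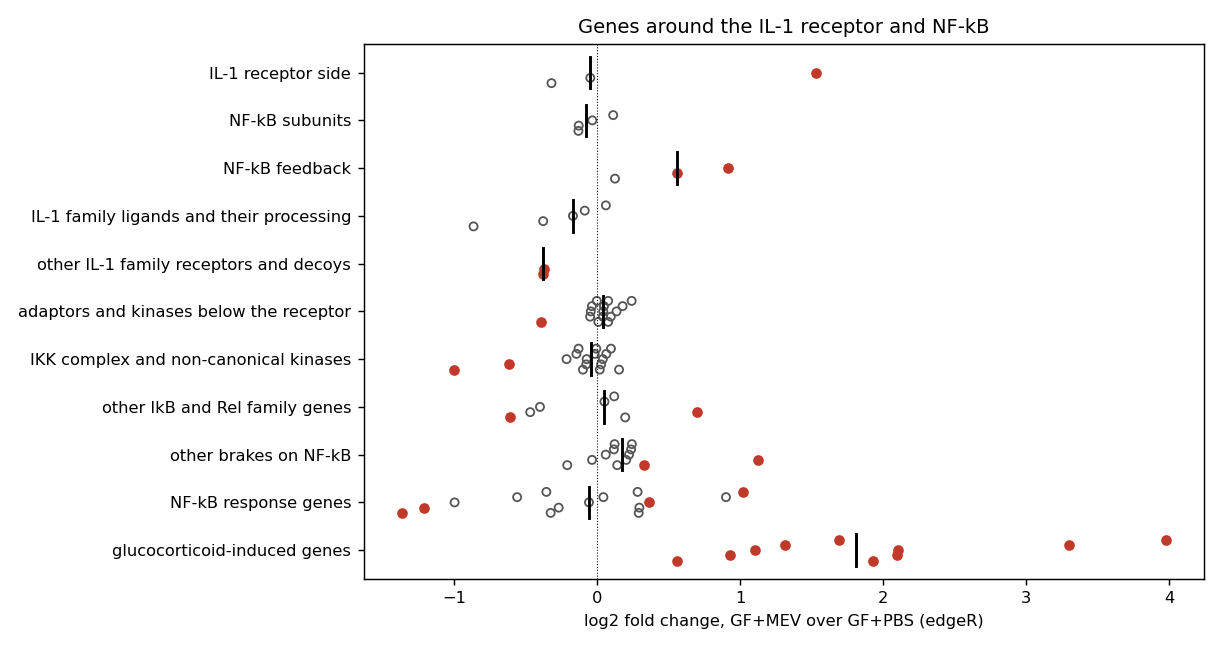
Each row of points gives 1 list, with each gene's log2 fold change (GF+MEV over GF+PBS, edgeR) on the linear horizontal axis, red filled points for an adjusted p under 0.05, open points for the rest and a black bar for the median. Red points lie on both sides of 0 in the NF-κB response genes (2 higher, 2 lower), and all 10 glucocorticoid-induced genes lie above 0. All lists were written with earlier results of these data known.

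Glucocorticoids are known to induce *Nfkbia*, and genes that they induce in liver were therefore set beside it. All 10 of that list were higher in GF+MEV, with log2 fold changes of 0.56 to 3.98 and a median of 1.81, where 4.12% of all genes were called higher. The list was written with earlier results of these data known, so its count is a description and not a test. *Tsc22d3*, which encodes the glucocorticoid-induced leucine zipper, was at 115 to 158 CPM in GF+MEV and 29.4 to 44.3 CPM in GF+PBS. *Dusp1*, a MAP kinase phosphatase gene, was at 79.7 to 132 CPM and 16.6 to 29.8 CPM. *Sgk1*, a kinase gene, was at 27.1 to 30.4 CPM and 13.0 to 17.8 CPM. The list's part in the change of *Nfkbia*, *Il1r1* or *Tnfaip3* was not tested.

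Markers of the cells that a liver holds were set beside the 10 genes. None of 10 Kupffer cell markers was called, with sums of 294 to 543 CPM (median 306) in GF+MEV and 334 to 475 CPM (median 417) in GF+PBS, so that at least 3 GF+MEV livers lay below all GF+PBS livers. None of 7 stellate cell markers was called either, at 157 to 230 and 181 to 201 CPM. Of 7 endothelial markers, *Lyve1* was higher and *Clec4g* lower, and their sums were 112 to 180 and 137 to 186 CPM. Of 7 hepatocyte markers, *Hnf4a* was higher. The 3 measured of 5 cholangiocyte markers summed to 28.1 to 79.3 CPM in GF+MEV and 23.2 to 29.7 CPM in GF+PBS. *Krt19* was higher, *Spp1* carried most of the sum and was not called (35.7 against 24.8 CPM), and *Sox9* had a log2 fold change of -0.98 that did not pass the test (adjusted p = 0.103 by edgeR). The 4 measured of 7 lymphocyte markers summed to 3.86 to 4.88 CPM in GF+MEV and 6.61 to 8.44 CPM in GF+PBS, without overlap, and the B cell genes *Cd79a* and *Cd79b* were lower. The 5 neutrophil markers were not analysed here. The part of the Kupffer cell, lymphocyte and cholangiocyte markers in the changes of the 10 genes was not tested.

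Deviations of log2 CPM from the group means were compared over the 10 livers, as a description of which genes moved together within a treatment. Among the 10 genes the closest pair was *Il1r1* and *Relb* (Pearson's r = 0.870), followed by *Nfkb1* and *Nfkbia* (0.692) and *Il1rn* and *Relb* (0.685). The most opposed pair was *Il1rap* and *Nfkbiz* (-0.422). Of 11833 genes that averaged 1 CPM or more, *Rprd1a* (0.963), *Mef2c* (0.962) and *Hirip3* (0.953) were nearest to *Il1r1*. *Ywhag* (0.951), *Slc30a9* (0.943) and *Maco1* (0.935) were nearest to *Nfkbia*, and *Gm15772* (0.943) and *Med14* (0.901) to *Tnfaip3*. The points share their libraries, and the highest of so many correlations over 10 livers is large by selection.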

How the data were processed

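RNA from 10 mouse livers was sequenced. The authors made the files with bcl2fastq 2.17, STAR 2.7.3a on GRCm38 and HTSeq, removed genes under 20 counts across samples, and deposited the raw counts, 1 value per Ensembl gene. The HTSeq version, annotation and strand setting are not given in the sources used here. A further 5 columns matched no described sample and were not used. Symbols, positions and exonic lengths came from GENCODE M21 (GRCm38).

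The groups were compared with edgeR 4.0.16 in R 4.3.3 (TMM, quasi-likelihood test on treatment, genes with at least 20 counts over the livers, Benjamini-Hochberg adjustment, threshold 0.05), where the study's own tool was DESeq2. The SE was computed on log2 CPM (prior count 2), and 95% intervals from limma-voom (limma 3.58.1). For single values, exact permutation tests (two-sided) ran over every labeling of 5 livers against 5. The scripts were tested on simulated data. The genes, lists and rules were chosen with earlier results of these data known. Named were all 10 genes, up to 6 called genes per list by smallest p, 9 genes whatever their result (*Il1a*, *Il1b*, *Il1r2*, *Myd88*, *Ikbkb*, *Ikbkg*, *Rel*, *Bcl3*, *Tnip1*), and the 3 genes nearest to each called gene, of which 1 is not reported here; *Tsc22d3*, *Dusp1*, *Sgk1*, marker genes and *Nfkb2*'s promoter were chosen as examples. Alternatives were DESeq2 1.42.0, limma-voom, other size factors, other filters, a replicate block, summed GF+PBS pairs and each liver left out.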

Additional observations from a re-analysis of the deposited data

Results flagged for a closer look

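Over 30 groups of 5 livers tested for a single value far from the others, 2 had one, where chance gives about 1 in 20 groups. *Nfkbiz* in GF+PBS replicate 2 was at 8.57 CPM, against 5.15 to 5.89 CPM in the other 4 livers of the group, a gap of 0.784 of the group's range (critical value 0.71). In GF+MEV replicate 2 the TMM factor was 0.890 and those of the other 4 livers lay between 0.978 and 1.01, a gap of 0.735 of the range. *Il1r1* and *Nfkbia* passed edgeR's test without that liver too, as without any other single liver.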

How the results depend on the processing

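*Il1r1* (log2 fold change 1.41 to 1.62) and *Nfkbia* (0.87 to 0.95) were called under all 18 alternatives, and 2 or 3 of the 10 genes were called in each. *Tnfaip3* was called under 12 of the 18, ranging from 0.486 to 0.622 with 1 liver left out, and was 0.552 with the GF+PBS pairs summed. Its mean log2 CPM difference ranged from 0.480 to 0.606. The sign turned for *Nfkb1*, whose log2 fold change ranged from -0.0772 to 0.0359 with a liver left out (mean log2 CPM difference -0.0789 to 0.0401), and for *Nfkbiz*, from -0.0136 to 0.282 (-0.00267 to 0.252). Neither passed the test in any fit, and the cause was not tested. The ratios kept their direction, and their p stayed at the smallest the test allows, which says nothing of stability. Of the 72 other pathway genes, 9 to 16 were called.

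The replicate numbers showed no consistent pairing of the livers, which does not exclude one. Deviations of same-numbered livers correlated at -0.188 to 0.166, and other pairs at -0.193 to 0.121. The highest value was that of the livers numbered 1. The labels share only a number. With a replicate block, *Tnfaip3* was 0.566 (adjusted p = 0.0725 by edgeR), the other 9 genes stayed on their side of the threshold, and 792 genes were called in all against 928 without it.  Summing the GF+PBS pairs, which leaves fewer samples, left 561 calls. Counting error was largest for *Relb*, *Il1rn* and *Tnfaip3*, the genes with the lowest counts.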
